A study of Mus musculus with 13 samples.

Results

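The comparison set CAT against WT regulatory T cells by RNA-seq, across every gene of the deposited expression table. It held 6 of the 13 libraries of the series, 3 of each genotype. CAT cells came from mice of genotype Foxp3Cre-YFP Ctnnb1flex3 and WT cells from mice of genotype Foxp3Cre-YFP, so both carry Cre recombinase and the yellow fluorescent protein YFP under the control of Foxp3. All mice were male, of strain C57BL/6 and 21 days old. CD4 T cells were enriched and then sorted for YFP and CD25, and the tissue label of the RNA libraries says only that the regulatory T cells were peripheral. In CAT mice Cre removes exon 3 of Ctnnb1, the gene of beta-catenin, in cells that express Foxp3. From 24340 deposited rows 24300 genes were used, and 13193 of them held enough fragments to be tested. Libraries held 27227212, 24124086 and 28456490 fragments in CAT replicates 1 to 3, against 25430629, 31527245 and 26320509 fragments in WT replicates 1 to 3. The labels do not say whether libraries of a genotype came from separate animals, so p-values measure only the spread between these samples, which may be technical. WT replicates 1 and 3 stood apart in how many genes held a fragment, at 19682 and 19776, against 15764 in WT replicate 2 and 15963 to 16079 in CAT libraries. At 1 FPKM or more the numbers were alike, 11207 to 11285 genes in CAT libraries and 11060 to 11129 in WT libraries.

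Regulatory T cells are CD4 T cells that hold back immune responses under the control of the transcription factor Foxp3. Beta-catenin carries the Wnt signal to the nucleus, where it binds TCF and LEF proteins on DNA and activates genes. Exon 3 encodes the sites that mark beta-catenin for degradation, and the protein made without it accumulates. The series asks how this activation reprograms regulatory T cells.

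The sorted cells expressed the genes that define their label in both genotypes. Foxp3 stood at 44.0, 41.2 and 44.2 FPKM (fragments scaled to transcript length and library size) in CAT libraries, against 23.7, 29.4 and 31.3 FPKM in WT libraries. Il2ra, which encodes the CD25 used in the sort, stood at 185, 187 and 211 FPKM in CAT libraries and at 59.8, 79.7 and 73.3 FPKM in WT libraries. Neither gene's groups overlapped, and both were higher in CAT cells, by 0.59 ± 0.11 for Foxp3 and 1.44 ± 0.09 for Il2ra. Each change is given as the log2 ratio of CAT to WT with an approximate standard error, and a gene is called higher or lower at an adjusted p under 0.05 (edgeR quasi-likelihood test, Benjamini-Hochberg adjustment, n = 3 per genotype). Cd4 had 200, 205 and 232 FPKM in CAT libraries and 177, 200 and 199 FPKM in WT libraries. Its change of 0.14 ± 0.09 missed the threshold (adjusted p = 0.197). Not all markers of these cells rose. Of 10 tested regulatory T cell markers 7 were higher and 2 lower in CAT cells, and of 10 tested T cell markers 2 were higher and 2 lower. Over all tested genes 25.5% were higher and 23.5% lower. Ctnnb1 had 129, 122 and 145 FPKM in CAT libraries and 135, 144 and 144 FPKM in WT libraries (-0.10 ± 0.09, adjusted p = 0.388), and this total over the gene does not check the deletion of exon 3.

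Markers of other cells moved with genotype as well. Of 12 markers of CD8 T and NK cells 10 were tested, and 9 rose and 0 fell in CAT cells (0 fell at an unadjusted p under 0.05 by edgeR, and 0 by DESeq2 or limma). Their summed level was 1659 to 4394 FPKM in CAT libraries and 28.0 to 34.9 FPKM in WT libraries, nearly all of it Gzma in CAT cells. Cd8b1, a chain of the CD8 coreceptor, had 17.5, 18.1 and 23.5 FPKM in CAT libraries and 7.84, 6.82 and 5.98 FPKM in WT libraries (1.53 ± 0.16), and Nkg7, a granule protein, had 68.3, 60.9 and 34.8 FPKM in CAT libraries and 15.5, 20.9 and 14.3 FPKM in WT libraries (1.64 ± 0.23). Cd8a, the other CD8 chain, was also called higher (1.89 ± 0.50), but Cd8a, Klrb1c and Ncr1 stayed under 0.5 FPKM in every library. Of 12 macrophage and monocyte markers 9 were tested, with 2 higher and 6 lower (1 and 1 by limma), and their sum was 5.09 to 9.85 FPKM in CAT libraries against 13.8 to 18.7 FPKM in WT libraries. B cell markers summed to 7.02 to 12.5 FPKM in CAT libraries and 18.1 to 21.2 FPKM in WT libraries, with Pax5 and Ebf1 under 0.5 FPKM in every library. Of 11 dendritic cell markers 5 were tested, with 5 higher and 0 lower (0 lower at an unadjusted p under 0.05 by edgeR, and 0 by DESeq2 or limma). They summed to 99.6 to 123 FPKM in CAT libraries and 24.1 to 32.5 FPKM in WT libraries, most of it Cd74, while Flt3, Itgax, Clec9a, Siglech, Batf3 and Cd209a were under 0.5 FPKM in every library. Of 7 plasma cell markers 6 were tested, with 5 higher and 0 lower (again 0 lower unadjusted or by the other tools), and their sum was 201 to 225 FPKM in CAT libraries against 81.6 to 96.4 FPKM in WT libraries, with Sdc1 and Tnfrsf17 under 0.5 FPKM in every library. Of 13 stroma and endothelium markers 3 were tested, with 1 higher and 1 lower. The list summed to 21.8 to 23.2 FPKM in CAT libraries and 52.1 to 53.9 FPKM in WT libraries. Most of its members were under 0.5 FPKM in every library, among them Col1a1, Pdgfra, Cdh5, Kdr and Vwf. Of 10 epithelium markers 4 were tested, with 2 higher and 1 lower. The list summed to 15.2 to 18.4 FPKM in CAT libraries and 4.65 to 6.43 FPKM in WT libraries. Most of its members were under 0.5 FPKM in every library, among them Cdh1, Krt5, Krt8, Krt14 and Krt19. Lists for neutrophils, mast cells and basophils, erythroid cells and platelets, and gamma delta T cells summed to at most 9.75 FPKM in any library. In bulk RNA, fewer cells of a type and less RNA per cell cannot be told apart. The part of other cells in the results below was not tested.

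Of the 13193 tested genes 3369 were higher and 3097 lower in CAT cells. This is 49.0% called, 25.5% higher and 23.5% lower, and class counts below are read against these shares. Most genes named below were chosen for large changes among called genes. For them, groups that do not overlap add no further support, and the share of all tested genes without overlap is not given. When WT replicates 1 and 3 were both left out, so that WT replicate 2 alone is assumed to vary like the CAT libraries, 1954 were higher and 1631 lower. By limma on log2(FPKM + 1) 2099 were higher and 1834 lower, and its counts are smaller in most classes. A log2 change of at least 1 was reached by 1385 genes that rose and 903 that fell, 10.5% and 6.84% of tested genes, and a change of at least 4 by 134 that rose and 56 that fell. The median change was 0.78 among genes called higher, -0.63 among genes called lower and 0.000738 over all tested genes. The balance differed by level of expression. Among the 887 genes at a mean of 100 FPKM or more 343 rose (38.7%) and 156 fell (17.6%). Between 5 and 20 FPKM the balance lay the other way, with 873 higher and 1078 lower among 4127 genes.

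**Figure D1:**
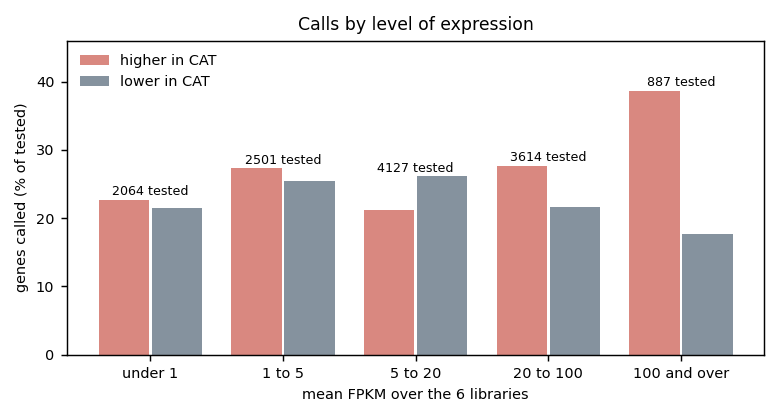
Share of tested genes called higher or lower in CAT cells (vertical axis, percent of tested genes) in 5 bins of mean FPKM over the 6 libraries (horizontal axis), with the number tested above each pair of bars. In the bin of 100 FPKM and over 38.7% of genes were higher and 17.6% lower.

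Absolute levels show which transcripts these cells were mostly made of. Tmsb4x, the gene of the actin monomer binder thymosin beta 4, was the most abundant protein-coding transcript in both genotypes. It had 8845, 7744 and 7997 FPKM in CAT libraries and 12455, 9122 and 8268 FPKM in WT libraries, with overlapping groups and a change of -0.26 ± 0.11 that missed the threshold (adjusted p = 0.0665), although DESeq2, the other count scalings and the fit without WT replicate 3 called it. The lists of the 20 most abundant protein-coding genes shared 16 genes, those of the 100 most abundant shared 74 and those of the 500 most abundant shared 408. Most of the shared leaders encode ribosomal proteins, with Eef1a1, a translation elongation factor, Actb and the class I MHC genes B2m and H2-K1 among them. In CAT cells Gzma, the killer cell protease granzyme A, joined the 20 most abundant. Its level was 4119, 4222 and 1541 FPKM in CAT libraries and 1.94, 0.404 and 0.981 FPKM in WT libraries, a change of 11.51 ± 0.67 (12.38 without WT replicate 1).

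The 26 genes that entered the 100 most abundant only in CAT cells included 14 histone genes. Among the others were Gzmb, Vim, Ctla4, Icos, Il2rb, Lgals1 and Serinc3. Gzmb, the gene of granzyme B, had 1339, 1015 and 609 FPKM in CAT libraries and 10.4, 5.54 and 6.35 FPKM in WT libraries (7.06 ± 0.39). Vim, which encodes the intermediate filament vimentin, had 2381, 1619 and 1151 FPKM in CAT libraries and 392, 305 and 266 FPKM in WT libraries (2.41 ± 0.16). The groups did not overlap for either gene, and CAT replicate 3 was the lowest of its genotype for both. Icos, a costimulatory receptor, stood at 839, 1065 and 737 FPKM in CAT libraries against 104, 127 and 104 FPKM in WT libraries (2.94 ± 0.16). Il2rb, the beta chain of the interleukin 2 receptor, was nearly constant within CAT cells at 832, 829 and 819 FPKM, against 349, 323 and 321 FPKM in WT libraries (1.31 ± 0.08). Srgn, the gene of serglycin, the proteoglycan that packs granzymes into granules, had 1626, 1777 and 1330 FPKM in CAT libraries and 651, 631 and 583 FPKM in WT libraries (1.32 ± 0.12). Lgals1, the gene of galectin 1, had 912, 784 and 517 FPKM in CAT libraries and 194, 164 and 139 FPKM in WT libraries (2.15 ± 0.19).

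The largest falls in absolute level were mostly of ribosomal proteins. Rps3a1, a protein of the small subunit, had 549, 548 and 550 FPKM in CAT libraries and 1297, 1384 and 1291 FPKM in WT libraries (-1.27 ± 0.08). Rps29 had 1967, 2004 and 2020 FPKM in CAT libraries and 3268, 2873 and 2520 FPKM in WT libraries (-0.54 ± 0.10), a call lost in limma without a filter on low values. Their groups did not overlap. Ribosomal protein genes have many processed copies in the genome, so the split of fragments between a gene and its copies is uncertain for them. Clec2d, a lectin-like ligand of a killer cell receptor, had 256, 275 and 335 FPKM in CAT libraries and 640, 751 and 629 FPKM in WT libraries (-1.27 ± 0.11).

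**Figure D2:**
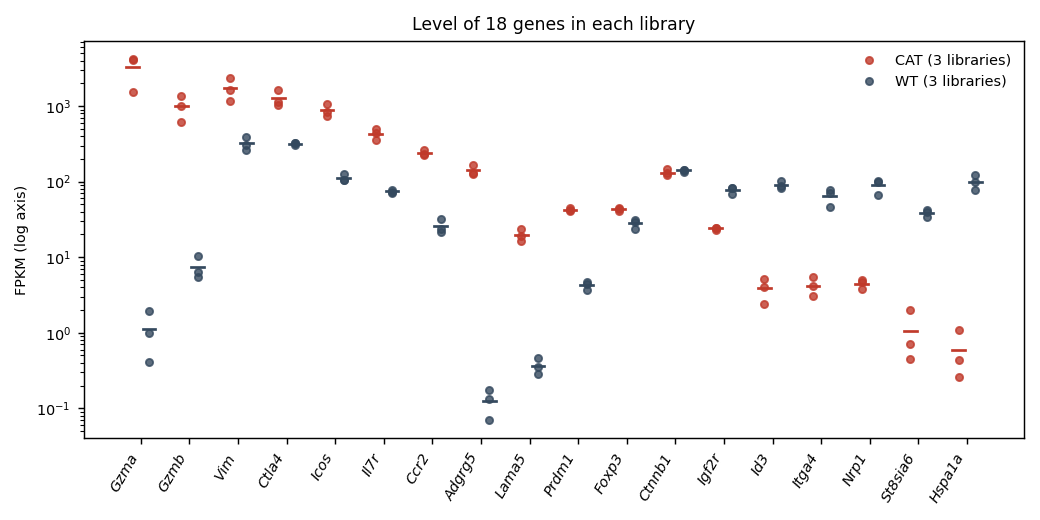
FPKM on a log axis of 18 genes (horizontal axis), with a point for each library, CAT to the left of WT for each gene, and a line at the mean of each genotype. Gzma stands at 1541 to 4222 FPKM in CAT libraries and under 2 FPKM in WT libraries, Ctnnb1 overlaps between the genotypes, and Hspa1a lies near 1 FPKM or under in CAT libraries and at 77.5 to 122 FPKM in WT libraries.

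Few genes crossed the whole range between silence and clear expression. Counting protein-coding genes under 0.5 FPKM in every WT library and at 5 FPKM or more in every CAT library gave 16 genes, while 2 genes, Cybb and Gucy1a3, met the opposite rule. Adgrg5, an adhesion receptor of the G protein coupled family, had the highest level of the 16 in CAT cells, at 166, 128 and 132 FPKM in CAT libraries, against 0.132, 0.0696 and 0.174 FPKM in WT libraries (10.13 ± 0.19, adjusted p = 1.03e-08). Dsg2, a cadherin of desmosomes, had 23.1, 36.7 and 35.8 FPKM in CAT libraries and 0.0435, 0.0219 and 0.0568 FPKM in WT libraries (9.60 ± 0.29). Neither gene's WT libraries reached 0.2 FPKM. Erich3 had 20.5, 25.3 and 24 FPKM in CAT libraries and 0.137, 0.134 and 0.174 FPKM in WT libraries (7.28 ± 0.16). Lama5, the alpha 5 chain of laminin, had 23.8, 19.1 and 16.2 FPKM in CAT libraries and 0.470, 0.282 and 0.349 FPKM in WT libraries (5.78 ± 0.13). Hpgd, the enzyme that inactivates prostaglandins, had 6.82, 11 and 10.1 FPKM in CAT libraries and 0.0687, 0.0200 and 0.0920 FPKM in WT libraries (7.23 ± 0.35). Others of the 16 were Gzmk (8.91 ± 0.49), the interleukin 1 receptor Il1r1 (5.19 ± 0.27), the T-box factor Eomes (5.00 ± 0.17), the frizzled receptor Fzd6 (3.61 ± 0.13), Rapgef3, which activates Rap proteins on binding cyclic AMP (6.27 ± 0.38), Tmem45a (6.27 ± 0.25) and Cobll1 (4.37 ± 0.16). Rai14 rose by 6.15 ± 0.31, or 6.79 without WT replicate 3, and Klk1b9, a kallikrein with close copies beside it, by 5.28 ± 0.36.

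For the last pair of the 16 the WT count was too low for a fitted change. The WT libraries together also held few fragments of Gzmk (6), Hpgd (8) and Klk1b9 (12), so the fitted changes of these genes rest on low WT counts. Gpx8, a peroxidase of the endoplasmic reticulum, had 473 fragments over the CAT libraries and 0 over the WT libraries, so it was at least 165-fold higher when the 3 WT libraries together are given the limit of 3 fragments that a count of 0 allows. Fabp4, a fatty acid binding protein known from fat cells and macrophages, had 1119 fragments in CAT libraries and 3 in WT libraries, which is 389 times as many after scaling for depth (133 to 1890 by 95% counting error). Cybb, a subunit of the phagocyte NADPH oxidase, was lower in CAT cells. It had 0.287, 0.230 and 0.230 FPKM in CAT libraries and 10.8, 10.9 and 14.1 FPKM in WT libraries (-5.59 ± 0.17). Gucy1a3, a subunit of the receptor for nitric oxide, fell by 4.75 ± 0.35 on the log2 scale, a change of -5.58 without CAT replicate 3.

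Among secreted signals and their receptors, rises outnumbered falls in interleukins, cytokine receptors and chemokine receptors, and the TNF family was split. Of 59 genes of interleukins, interferons and colony stimulating factors 13 were tested, with 7 higher and 1 lower and a median change of 0.88. Csf1, the growth factor of macrophages, had 46.3, 29.9 and 39.7 FPKM in CAT libraries and 4.92, 6.04 and 5.71 FPKM in WT libraries (2.74 ± 0.15). Of 37 tested cytokine receptor genes 19 rose and 10 fell, with a median of 0.50. Il1rl1, the receptor of interleukin 33, had 103, 104 and 69.5 FPKM in CAT libraries and 7.77, 7.80 and 7.54 FPKM in WT libraries (3.55 ± 0.20). Il7r, the receptor of interleukin 7, which regulatory T cells usually keep low, had 442, 490 and 354 FPKM in CAT libraries and 71.4, 77.0 and 74.0 FPKM in WT libraries (2.50 ± 0.15). The spread of WT libraries was under 1 FPKM for Il1rl1 and under 6 FPKM for Il7r. CAT libraries spread more widely, from 69.5 to 104 FPKM for Il1rl1 and from 354 to 490 FPKM for Il7r. Of 18 tested chemokine receptor genes 11 rose and 2 fell, with a median of 1.2. Ccr2, which guides cells to sites of inflammation, had 228, 264 and 233 FPKM in CAT libraries and 21.7, 31.9 and 23.5 FPKM in WT libraries (3.21 ± 0.14). Cxcr6 rose by 2.91 ± 0.28, while Ccr6, a receptor of gut homing, fell to 7.26, 6.33 and 5.11 FPKM in CAT libraries, against 31.9, 31.3 and 24.4 FPKM in WT libraries (-2.26 ± 0.15).

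TNF ligands and receptors gave 10 higher and 13 lower of 33 tested, with a median of -0.19. The members that rose included Tnfrsf1b, the receptor TNFR2, by 1.96 ± 0.08, Tnfrsf4, the receptor OX40, by 1.53 ± 0.12, and Fasl, the death ligand, by 2.97 ± 0.19. Those that fell included Tnfsf11, the ligand RANKL, at -1.50 ± 0.17, and Tnfrsf25 at -1.35 ± 0.11. Coinhibitory and costimulatory receptors split as well, with 14 higher and 7 lower of 30 tested. Havcr2, which encodes TIM-3, rose by 3.51 ± 0.38 and Tigit by 2.76 ± 0.18. Pdcd1, which encodes PD-1, fell to 14.9, 14.3 and 18.9 FPKM in CAT libraries, against 45.2, 41.4 and 45.2 FPKM in WT libraries (-1.44 ± 0.11). Cd96, a receptor that binds the same ligand as Tigit, had 12.4, 19.0 and 27.8 FPKM in CAT libraries and 145, 179 and 159 FPKM in WT libraries (-3.08 ± 0.20). Tigit and Cd96 thus moved in opposite directions. Cd28 and Cd226, which both give costimulation, fell by 0.90 ± 0.08 and 1.72 ± 0.11.

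G protein coupled receptors and solute carriers were split, near the background shares. Of 87 tested G protein coupled receptor genes 28 rose and 21 fell, with Ptger2, a receptor of prostaglandin E2 (-2.10 ± 0.08), and Lpar6, a receptor of lysophosphatidic acid (-2.21 ± 0.12), among those that fell. Of 222 tested solute carriers 60 rose (27.0%) and 52 fell (23.4%), close to the shares of all genes. Slc43a1, a carrier of large neutral amino acids, led them at 21.6, 19.9 and 19.5 FPKM in CAT libraries and 1.45, 1.36 and 1.5 FPKM in WT libraries (3.78 ± 0.10). Of 20 tested subunits of the vacuolar proton pump 7 rose and 1 fell, and Atp6v1g3 and Atp6v0d2, forms known from kidney and bone, rose by 3.51 ± 0.19 and 3.19 ± 0.25.

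Of 22 tested integrins 7 rose and 7 fell, with a median of 0.04. Cadherins and protocadherins gave 4 higher, 2 lower and 18 not called of 24 tested (6 lower without CAT replicate 3 and 5 lower without WT replicate 2). Itga2, the collagen receptor chain alpha 2, had 20, 19.8 and 15.5 FPKM in CAT libraries and 0.924, 0.935 and 0.938 FPKM in WT libraries (4.30 ± 0.16). Itgae, the alpha E chain that binds E-cadherin of epithelium, had 292, 306 and 291 FPKM in CAT libraries and 74.5, 87.1 and 87.6 FPKM in WT libraries (1.84 ± 0.09). Itga4, the chain shared by the receptors of VCAM-1 and of the gut addressin, had 3.06, 4.11 and 5.45 FPKM in CAT libraries and 46, 70.2 and 78.1 FPKM in WT libraries (-3.97 ± 0.17). In all of these genes every CAT library lay on one side of every WT library, as their choice for large called changes made likely. Itgb8, whose product activates TGF-beta, fell by 2.48 ± 0.15. Lamc1, the laminin gamma 1 chain, had 55.7, 43.5 and 42.6 FPKM in CAT libraries and 4.30, 4.87 and 4.64 FPKM in WT libraries (3.35 ± 0.12). St8sia6, a sialyltransferase, was the glycosyltransferase that fell most, with 0.447, 0.708 and 2.01 FPKM in CAT libraries and 34.1, 41.9 and 39.4 FPKM in WT libraries (-5.23 ± 0.38, and -6.07 without CAT replicate 3). Over 82 tested glycosyltransferases 25 rose and 30 fell. Fut7, which builds selectin ligands, rose by 2.66 ± 0.26.

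Classes of signal inhibitors differed in balance. Of 17 tested dual specificity phosphatases, which switch off MAP kinases, 10 rose and 3 fell, with a median of 0.45, although limma on log2(FPKM + 1) called 5 higher and 2 lower. Dusp5 had 58.7, 34.6 and 34.3 FPKM in CAT libraries and 16.0, 9.1 and 11.6 FPKM in WT libraries (1.78 ± 0.12). Of 8 tested SOCS genes, inhibitors of cytokine signalling, 4 rose and 2 fell. Cish had 96.8, 87.7 and 93.8 FPKM in CAT libraries and 37.8, 34.4 and 33.1 FPKM in WT libraries (1.40 ± 0.08), and Socs2 and Socs3 rose by 1.35 ± 0.11 and 1.11 ± 0.12. Regulators of G protein signalling gave 4 higher and 6 lower of 11 tested, with a median of -0.42. Ptpn6, the phosphatase SHP-1 that dampens antigen receptor signals, fell to 39.3, 32.4 and 54.1 FPKM in CAT libraries, against 93.5, 93 and 99.2 FPKM in WT libraries (-1.16 ± 0.18). Tnip3, an inhibitor of NF-kappaB signalling, had 25.3, 36.0 and 26.7 FPKM in CAT libraries and 1.10, 1.0 and 0.929 FPKM in WT libraries (4.81 ± 0.18).

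Transcription factor families differed in balance, and zinc finger genes fell far more often than they rose. Of 318 tested genes with a Zfp symbol, most of which encode DNA binding proteins of the zinc finger type, 159 fell (50%) and 25 rose (7.86%), with a median of -0.33. The number that rose was 16 without WT replicate 2, and limma on log2(FPKM + 1) called 13 higher and 110 lower. A log2 fall of at least 1 was reached by 29 of them. At a mean of 5 FPKM or more in either genotype the largest falls were those of Zfp827 (-1.68 ± 0.22), Zfp708 (-1.35 ± 0.14) and Zfp280b (-1.26 ± 0.13). Nuclear receptors gave 6 higher and 12 lower of 29 tested. Prdm1, which encodes the effector factor BLIMP-1, had 45, 42.2 and 40.7 FPKM in CAT libraries and 3.65, 4.72 and 4.43 FPKM in WT libraries (3.30 ± 0.10). Its groups stood far apart. The inhibitors of E proteins moved in opposite directions. Id2 had 168, 192 and 134 FPKM in CAT libraries and 37.0, 35.2 and 37.9 FPKM in WT libraries (2.14 ± 0.14), while Id3 had 4.06, 2.41 and 5.18 FPKM in CAT libraries and 101, 87.2 and 83.4 FPKM in WT libraries (-4.51 ± 0.23).

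Further factors that fell included Tox (-2.40 ± 0.24), Bach2 (-1.53 ± 0.26), Klf2 (-1.01 ± 0.10), Foxp1 (-0.84 ± 0.11) and Jun (-1.30 ± 0.13), of which Bach2, Klf2 and Foxp1 are known from resting T cells. Further factors that rose included the AP-1 subunit Fosl2 (2.25 ± 0.14), the leucine zipper factor Nfil3 (2.01 ± 0.10), Irf8 (1.5 ± 0.10), Arnt2 (2.94 ± 0.12) and Runx2 (2.41 ± 0.26). Of 78 tested lysine demethylases, methyltransferases and deacetylases of chromatin 12 rose and 23 fell, and Ezh2, the methyltransferase of the Polycomb complex, rose to 32.4, 38.8 and 38.8 FPKM in CAT libraries, against 19.9, 19.7 and 17.7 FPKM in WT libraries (0.94 ± 0.10).

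Histone genes rose almost as a class. Of 83 such genes 72 were tested, and 66 rose (91.7%) and 0 fell, with a median of 1.91. In edgeR 1 fell at an unadjusted p under 0.05, and DESeq2 and limma called 0 lower. Leaving out each library in turn gave 64 to 68 higher and 0 or 1 lower. Hist1h3b, a histone H3 gene, had 1615, 630 and 411 FPKM in CAT libraries and 222, 68.7 and 54.0 FPKM in WT libraries (3.04 ± 0.23). Hist1h1d, a linker histone gene, had 1698, 888 and 588 FPKM in CAT libraries and 426, 191 and 133 FPKM in WT libraries (2.18 ± 0.18). By FPKM replicate 1 was the highest and replicate 3 the lowest for both genes in each genotype, and the groups did not overlap. The class took up 10.3%, 6.90% and 4.97% of all protein-coding FPKM in CAT libraries and 3.33%, 2.04% and 1.64% in WT libraries. By fragments instead of FPKM, which does not weight short transcripts up, the shares were 1.15%, 1.21% and 0.841% in CAT libraries and 0.411%, 0.361% and 0.309% in WT libraries, so the size of the share and the order of CAT replicates 1 and 2 depend on the scale. Histone genes of a type are near-identical copies and short, so the level of any one of them is uncertain. Most replication histone mRNAs lack a poly(A) tail, and how RNA was selected for these libraries is not given in the sources used here.

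Kinetochore and replication genes were also mostly higher. Of 39 tested centromere and kinetochore genes 29 rose and 2 fell, with a median of 1.26, and of 50 tested replication genes 33 rose and 4 fell, with a median of 0.53. Cenpf, a kinetochore protein, had 7.03, 9.30 and 5.05 FPKM in CAT libraries and 1.36, 1.26 and 1.06 FPKM in WT libraries (2.57 ± 0.21). Rrm2, which makes the deoxynucleotides of DNA, had 29.1, 32.3 and 22.0 FPKM in CAT libraries and 5.92, 5.01 and 4.88 FPKM in WT libraries (2.38 ± 0.17). Ccnb1, the cyclin of mitosis, rose by 3.02 ± 0.24, and Ube2c, the ubiquitin conjugating enzyme of the anaphase promoting complex, by 3.58 ± 0.28. CAT replicate 3 was the lowest CAT library for Cenpf, Rrm2, Ccnb1 and Ube2c. Of 33 tested kinesins 16 rose and 5 fell, with a median of 0.37, and of 18 tested cyclins 7 rose and 3 fell, with a median of 0.05 (5 fell without WT replicate 3). Condensin and cohesin subunits did not move as a block, with 10 higher and 8 lower of 24 tested. Ncaph rose by 2.57 ± 0.17, while Smc4, a core condensin ATPase, fell to 198, 253 and 306 FPKM in CAT libraries, against 447, 498 and 440 FPKM in WT libraries (-0.86 ± 0.12).

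Short letter sequences were searched for because the histone genes moved together and because beta-catenin acts through TCF and LEF proteins. From the named genes 4 were picked because they hold the letters marked below, so these matches are no result of the data. The 250 bases before the start of these 4 genes are shown. They come from RefSeq (build GRCm38.p6, all on the plus strand), written 5′ to 3′. In the first, Hist1h3b (H3c2 in RefSeq, chr13:23752095-23752344), capitals mark CCAAT and TATAAA. In the others capitals mark CTTTGAT, a core letter sequence that TCF and LEF proteins bind, in Ube2c (chr2:164769679-164769928) and H2-Eb1 (chr17:34305617-34305866), which rose, and Zfp827 (chr8:79028187-79028436), which fell.
Hist1h3b: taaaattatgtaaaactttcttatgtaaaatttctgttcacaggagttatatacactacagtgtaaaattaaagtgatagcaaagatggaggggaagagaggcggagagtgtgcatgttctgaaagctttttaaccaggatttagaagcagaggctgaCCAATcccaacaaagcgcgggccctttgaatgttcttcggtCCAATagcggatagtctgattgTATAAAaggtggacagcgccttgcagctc
Ube2c: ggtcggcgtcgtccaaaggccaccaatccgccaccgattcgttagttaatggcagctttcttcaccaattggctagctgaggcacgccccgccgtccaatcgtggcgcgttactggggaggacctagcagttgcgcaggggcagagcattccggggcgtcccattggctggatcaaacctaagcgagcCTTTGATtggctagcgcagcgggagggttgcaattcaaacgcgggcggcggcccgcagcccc
H2-Eb1: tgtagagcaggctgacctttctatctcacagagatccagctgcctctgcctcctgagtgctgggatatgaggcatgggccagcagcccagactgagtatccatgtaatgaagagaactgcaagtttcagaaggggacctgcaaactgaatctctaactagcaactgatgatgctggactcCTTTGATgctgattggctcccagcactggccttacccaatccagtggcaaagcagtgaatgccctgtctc
Zfp827: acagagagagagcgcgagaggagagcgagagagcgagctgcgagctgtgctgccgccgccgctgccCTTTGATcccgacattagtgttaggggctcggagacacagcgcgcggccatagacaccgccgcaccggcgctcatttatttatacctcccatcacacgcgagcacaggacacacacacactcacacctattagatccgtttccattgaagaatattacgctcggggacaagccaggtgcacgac

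Over the 300 bases around the start (250 before and 50 after), 10464 tested genes matched a RefSeq promoter. CTTTGAT or its reverse complement ATCAAAG occurred in 2.20% of genes that rose (59 of 2679) and 2.26% of genes that fell (55 of 2439). The share was 2.75% of genes not called and 3.72% of all 27025 promoters in the table. Among histone genes it was 6.25% (4 of 64) and among Zfp genes 4.89% (13 of 266), against 2.49% of tested genes. Of 59 cytosolic ribosomal protein genes 0 held it, and these differences were not tested. CCAAT or ATTGG occurred in 82.8% of 64 histone genes, against 39.3% of tested genes and 37.9% of all promoters. TATAAA or TTTATA occurred in 56.2% of histone genes, against 7.43% of tested genes and 14.2% of all promoters. The E2F-like letters TTTGGCGC or GCGCCAAA were searched as well. They occurred in 0 of 64 histone genes, against 0.984% of tested genes and 0.537% of all promoters. Their share was 1.42% of genes that rose and 0.656% of genes that fell, and these differences were not tested either. Both strands were searched, matches of different motifs may share letters, and a match describes the letters only.

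Genes of the cytoskeleton and its motors rose more often than they fell. Of 67 tested actin and actin binding genes 32 rose and 7 fell, with a median of 0.26, and the number that fell was 4, 3, 4 and 2 without CAT replicate 1, CAT replicate 2, WT replicate 1 and WT replicate 2 in turn. Of 28 tested myosins 16 rose and 2 fell. Limma on log2(FPKM + 1) called 17 actin genes higher and 2 lower, and 8 myosins higher and 1 lower. Actr3b, a subunit of the Arp2/3 complex that branches actin, had 26.1, 18.9 and 18.4 FPKM in CAT libraries and 1.19, 1.53 and 0.994 FPKM in WT libraries (4.09 ± 0.21). Myo6, a motor that walks to the minus end of actin, had 54.6, 64.8 and 115 FPKM in CAT libraries and 10.8, 9.27 and 10.0 FPKM in WT libraries (2.92 ± 0.24). CAT replicate 3 was the highest library for Myo6. Annexins, S100 proteins and galectins, calcium and sugar binding proteins of effector T cells among other cells, gave 14 higher and 0 lower of 25 tested, with a median of 1.01 (0 lower at an unadjusted p under 0.05 by edgeR, and 0 by DESeq2 or limma). S100a6 had 616, 329 and 243 FPKM in CAT libraries and 73.4, 41.6 and 37.4 FPKM in WT libraries (2.98 ± 0.27), and Lgals3, the gene of galectin 3, rose by 3.56 ± 0.30.

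**Figure D3:**
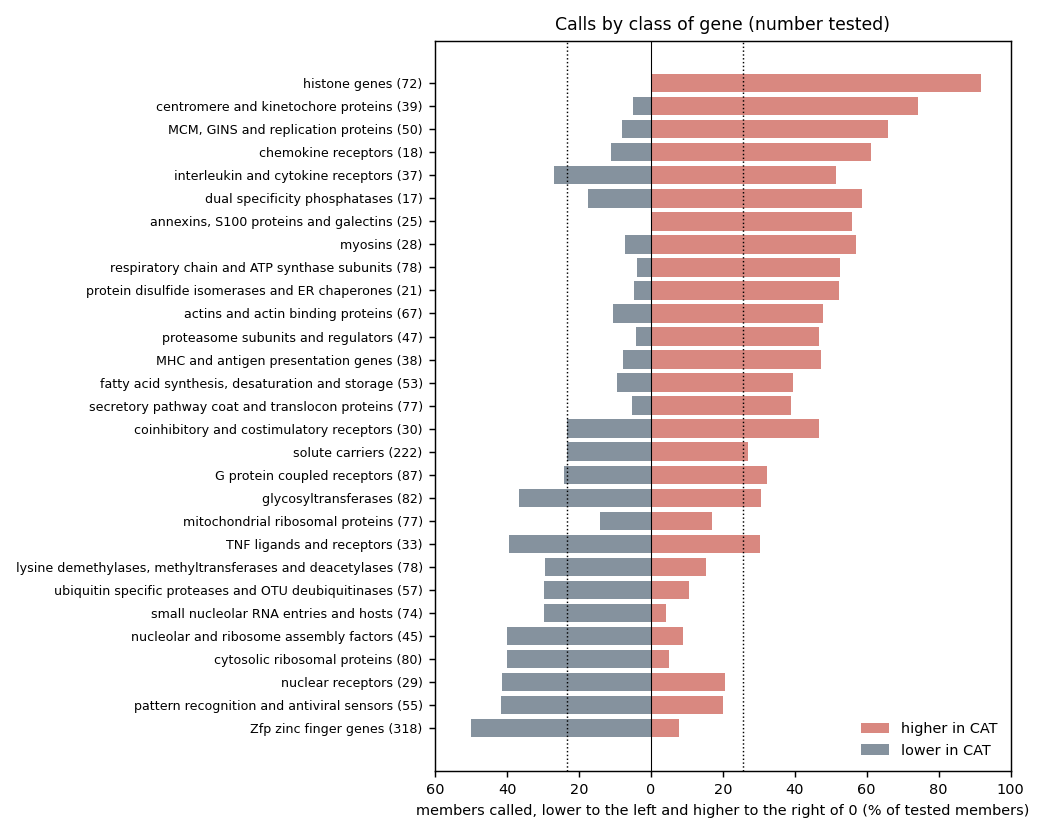
Share of tested members called lower (left of 0) and higher (right of 0) in CAT cells for 29 classes of genes, in percent, with the number tested after each name. Dotted lines mark the shares of all tested genes, 23.5% lower and 25.5% higher. Histone genes reach 91.7% higher, and Zfp zinc finger genes 50% lower.

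Ribosomal protein genes fell more often than they rose, and proteasome genes rose more often than they fell. Of 80 tested cytosolic ribosomal protein genes 32 fell and 4 rose, with a median of -0.22, while limma on log2(FPKM + 1) called 12 lower and 3 higher. They took up 15.4%, 15% and 15.5% of protein-coding FPKM in CAT libraries and 23.5%, 18.5% and 18.5% in WT libraries, so WT replicate 1 stood apart and the groups did not overlap. By fragments, which do not weight short transcripts up, the shares were 3.69%, 3.98% and 3.91% in CAT libraries. In WT libraries they were 5.26%, 4.45% and 4.48%, so the size of the share and of the excess in WT replicate 1 depends on the scale. The largest changes were of Rps4l and Rpl39l, copies with restricted expression that rose by 3.83 ± 0.32 and 2.86 ± 0.38 and whose sequences resemble their parent genes. Nucleolar and ribosome assembly factors gave 18 lower and 4 higher of 45 tested (median -0.23). Proteasome genes gave 22 higher and 2 lower of 47 tested (median 0.23), or 10 and 1 by limma on log2(FPKM + 1). Psmb2, a subunit of the proteasome core, had 189, 186 and 163 FPKM in CAT libraries and 122, 110 and 101 FPKM in WT libraries (0.67 ± 0.09).

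Subunits of the respiratory chain and ATP synthase rose in many small steps. Of 78 tested 41 rose and 3 fell, with a median of 0.29. The number that rose was 26, 24 and 25 without CAT replicate 2, WT replicate 2 and WT replicate 3 in turn, and limma on log2(FPKM + 1) called 11 higher and 1 lower. Cox8a, a subunit of cytochrome c oxidase, had 507, 411 and 353 FPKM in CAT libraries and 284, 181 and 186 FPKM in WT libraries (0.94 ± 0.12). Coat and translocon proteins of the secretory pathway gave 30 higher and 4 lower of 77 tested (median 0.18). Without CAT replicate 2, WT replicate 2 and WT replicate 3 in turn 18, 17 and 16 of them rose, and limma on log2(FPKM + 1) called 16 higher and 2 lower. Xbp1, the factor that enlarges the secretory pathway, had 110, 104 and 111 FPKM in CAT libraries and 49.3, 46.8 and 45.6 FPKM in WT libraries (1.19 ± 0.08). The class values of both genotypes are close in absolute share, 2.73%, 2.71% and 2.65% of protein-coding FPKM for the respiratory class in CAT libraries and 2.65%, 2.36% and 2.32% in WT libraries.

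**Figure D4:**
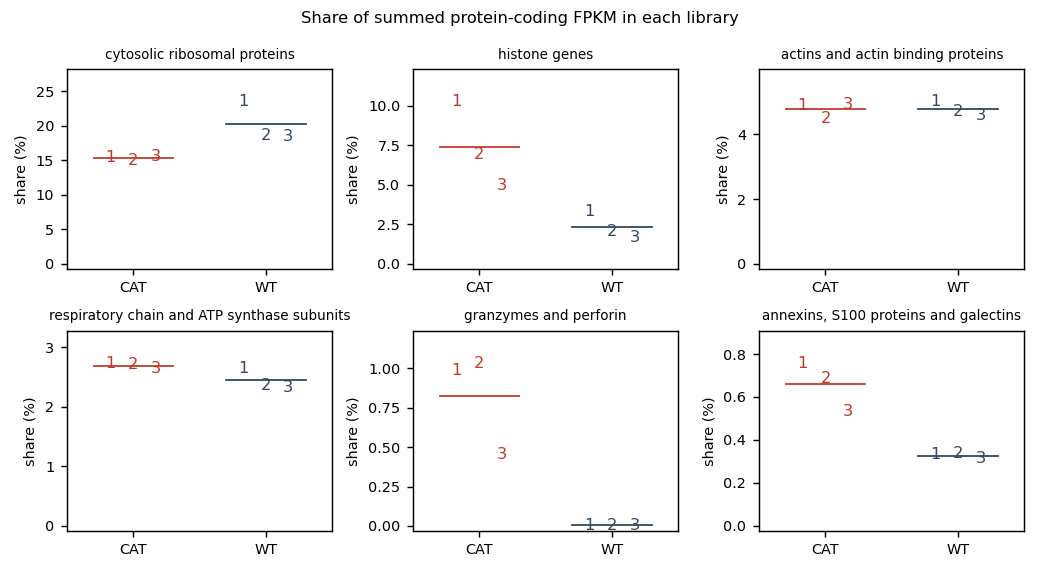
Share of summed protein-coding FPKM (percent, each axis from 0) taken up by 6 classes of genes, with each library drawn as its replicate number, CAT left of WT, and a line at the mean. Ribosomal proteins lie at 15% to 15.5% in CAT libraries and 18.5% to 23.5% in WT libraries, and histone genes at 4.97% to 10.3% in CAT libraries and 1.64% to 3.33% in WT libraries. FPKM weights short transcripts up, so shares by fragments are smaller for both classes.

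Heat shock genes fell more often than they rose, some of them steeply. Of 72 tested 24 fell and 12 rose (17 and 6 by limma), and 7 rose without CAT replicate 1. Hspa1a, a stress inducible chaperone of the HSP70 family, had 0.437, 1.09 and 0.260 FPKM in CAT libraries and 122, 77.5 and 97.7 FPKM in WT libraries (-7.30 ± 0.40, and -8.25 without CAT replicate 2). Hspa1b, its near-identical neighbour, had 0.870, 1.39 and 0.272 FPKM in CAT libraries and 146, 89.2 and 117 FPKM in WT libraries (-7.08 ± 0.41, and -7.89 without CAT replicate 2). The split of fragments between both copies is uncertain, but both were low in every CAT library and high in every WT library.

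Enzymes of metabolism showed a few steep changes within classes of mild balance. Of 27 tested glycolysis genes 13 rose and 7 fell, among them Gapdh, which had 52.2, 60.4 and 48.4 FPKM in CAT libraries and 26.9, 20.9 and 19.6 FPKM in WT libraries (1.26 ± 0.13). Ldhb, a lactate dehydrogenase, fell by 1.22 ± 0.16. Of 53 tested genes of fatty acid synthesis and storage 21 rose and 5 fell, with a median of 0.28. Fabp5, a fatty acid carrier, had 84.2, 77.8 and 63.4 FPKM in CAT libraries and 17.2, 13.5 and 16.2 FPKM in WT libraries (2.25 ± 0.17). Of 53 tested genes of the glutathione and thioredoxin systems 19 rose and 8 fell. Gsta4, which detoxifies products of lipid oxidation, fell to 1.48, 1.49 and 1.92 FPKM in CAT libraries, against 43.2, 39.8 and 32.9 FPKM in WT libraries (-4.56 ± 0.17). Got1, an enzyme of aspartate metabolism, rose by 1.71 ± 0.09 and Asns, which makes asparagine, by 2.22 ± 0.22. Among ectoenzymes of extracellular nucleotides, Entpd1, the gene of CD39, rose by 1.04 ± 0.08, while Cd38 fell to 0.708, 0.850 and 1.11 FPKM in CAT libraries, against 7.38, 10.7 and 11.1 FPKM in WT libraries (-3.48 ± 0.14).

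Antiviral genes were lower more often than higher, and genes of antigen presentation were mostly higher. Of 55 tested antiviral sensors and effectors 23 fell and 11 rose, with a median of -0.13. Tlr7, a sensor of RNA, had 1.80, 1.49 and 1.68 FPKM in CAT libraries and 18.4, 22.9 and 18.2 FPKM in WT libraries (-3.60 ± 0.15). Usp18, which curbs interferon signalling, had 8.98, 7.36 and 7.0 FPKM in CAT libraries and 43.4, 61.0 and 38.7 FPKM in WT libraries (-2.62 ± 0.17). Ifitm3, a membrane protein that blocks virus entry, went the other way, at 120, 69.1 and 54.9 FPKM in CAT libraries and 2.85, 4.02 and 1.41 FPKM in WT libraries (4.80 ± 0.34). Guanylate binding proteins split too, as Gbp3 rose by 1.15 ± 0.14 and Gbp2b fell by 3.77 ± 0.13. Of 38 tested MHC and antigen presentation genes 18 rose and 3 fell (median 0.27), or 11 and 1 by limma on log2(FPKM + 1). H2-Eb1, a class II chain, had 8.61, 9.80 and 5.16 FPKM in CAT libraries and 0.892, 0.393 and 0.594 FPKM in WT libraries (3.65 ± 0.33), and its partner in class II transport Cd74 rose by 1.93 ± 0.09. H2-Ob, a chain of the inhibitor of class II loading, fell to 2.82, 4.47 and 3.69 FPKM in CAT libraries, against 26.1, 28.4 and 31.6 FPKM in WT libraries (-3.01 ± 0.13).

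Falls outnumbered rises among long noncoding and small nucleolar RNAs, but not in other noncoding biotypes. Of 580 tested long noncoding RNAs 84 rose (14.5%) and 148 fell (25.5%), with a median of -0.18, against 3236 higher and 2884 lower of 12293 protein-coding genes. Of 51 entries annotated as small nucleolar RNAs 0 rose and 16 fell, and 0 rose at an unadjusted p under 0.05 by edgeR or by DESeq2 or limma. Transcribed pseudogenes gave 37 higher and 33 lower of 186 tested, and microRNA entries 2 higher and 2 lower of 20. Small nucleolar RNAs lie mostly inside introns of longer genes, and their fragments cannot be told apart from those of unspliced host RNA. Mir155hg and Mir17hg, host genes of microRNAs active in T cells, fell by 1.38 ± 0.19 and 1.13 ± 0.12.

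The estimated spread was wider among CAT libraries, a difference that was not tested, and CAT replicate 3 stood apart. The biological coefficient of variation that edgeR estimates from 1 genotype alone was 0.154 in CAT and 0.109 in WT. Between pairs it was 0.100 for CAT replicates 1 and 2, 0.189 for 1 and 3 and 0.161 for 2 and 3, against 0.0841 to 0.128 between WT pairs. On the first principal component of log2 CPM (counts scaled to library size), with 82.0% of the variance, CAT replicates 1 to 3 lay at 68.6, 66.6 and 51.6 and WT replicates at -57.3, -69.1 and -60.3. On the second, with 6.70%, CAT replicates lay at 23.0, 6.38 and -34.2. Of the 6466 genes called between genotypes, CAT replicate 3 was the CAT library nearest to the WT mean in 3579 (55.4%), replicate 1 in 21.4% and replicate 2 in 23.2%. The median distance to the WT mean over these genes was 0.736, 0.722 and 0.612 log2 units in CAT replicates 1 to 3.

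The distance of CAT replicate 3 varied by class. The median difference of CAT replicate 3 from the mean of CAT replicates 1 and 2 was 0.00351 log2 units over all tested genes. Of these 13193 genes 1189 were lower and 1006 higher in CAT replicate 3 by at least 0.5, and the class counts are read against these. For chemokines it was -0.75, with 9 of 15 genes lower in CAT replicate 3 by at least 0.5. This class held few fragments, 0.00322%, 0.00329% and 0.00204% of all fragments in CAT replicates 1 to 3, so its values are among the less precise. Granzymes and perforin stood at -0.58 (3 of 6 lower by at least 0.5), histone genes at -0.52 (39 of 72 lower by at least 0.5), interferon inducible GTPases at -0.44 and centromere and kinetochore genes at -0.40 (17 of 39). Granzyme, histone and kinetochore genes were mostly higher in CAT cells, so a low value in CAT replicate 3 lies toward the WT level, whereas chemokines and GTPases were called in both directions. Zfp genes stood at 0.0228 and cytosolic ribosomal proteins at 0.0165, near the median of all genes. ADAM and related proteases lay at 0.23, with 11 of 34 higher by at least 0.5.

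**Figure D5:**
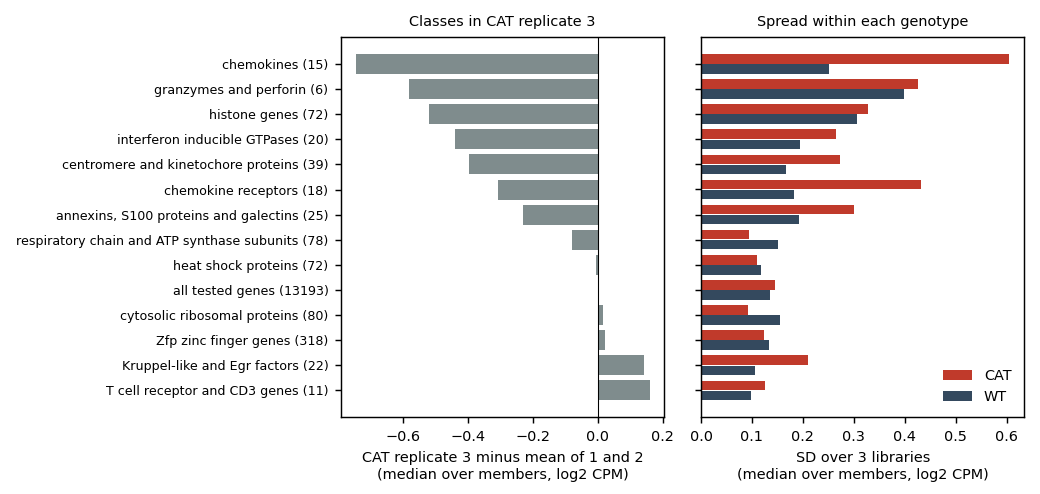
Left, the median over class members of CAT replicate 3 minus the mean of CAT replicates 1 and 2 (log2 CPM), with the number tested after each name. Right, the median over members of the SD over 3 libraries, CAT above WT. Chemokines are lowest on the left at -0.75, and their median SD was 0.605 in CAT libraries and 0.251 in WT libraries.

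Single genes with a wide spread within CAT were few. Of 8620 genes at a mean of 5 FPKM or more in CAT cells 26 had an SD of log2 CPM of at least 1, against 18 of 8529 in WT cells. The median SD was 0.113 in CAT cells and 0.109 in WT cells, while the 90th percentile was 0.279 in CAT cells and 0.218 in WT cells. In many of the 26 CAT replicate 1 stood apart. It alone was low in the genes with the largest SD, Atp6v0c-ps2, Gm5424 and Amd1. It was also low in Rnaset2a (14.3, 234 and 237 FPKM in CAT libraries) and high in Zfp949 (22.8, 8.33 and 6.60 FPKM). In several others CAT replicate 3 alone was low. Cdkn1a, the cell cycle inhibitor p21, had 10.4, 8.23 and 2.83 FPKM in CAT libraries and 0.233, 0.461 and 0.286 FPKM in WT libraries. Gda, a guanine deaminase, had 9.83, 8.07 and 1.21 FPKM in CAT libraries and 0.0379, 0.0465 and 0.140 FPKM in WT libraries. Ednrb, an endothelin receptor, had 11.6, 9.57 and 1.60 FPKM in CAT libraries and 0.0237, 0 and 0.0674 FPKM in WT libraries. Cdkn1a, Gda and Ednrb remained above every WT library in all CAT libraries, and Cdkn1a rose by 4.44 ± 0.52. Gda rose by 6.49 ± 0.89, or 5.88 without CAT replicate 1 and 7.18 without WT replicate 3, and Ednrb by 7.98 ± 1.01, or 7.34 without WT replicate 2 and 9.08 without WT replicate 3.

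Other genes with a wide spread were not called between the genotypes. Ifng, the gene of interferon gamma, had 7.46, 6.73 and 1.14 FPKM in CAT libraries and 5.16, 4.68 and 3.61 FPKM in WT libraries (0.17 ± 0.52, adjusted p = 0.807), and it was called higher without CAT replicate 3 (0.65, adjusted p = 0.0145). Gdpd3, a phosphodiesterase of lipids, had 151, 42.8 and 1.29 FPKM in CAT libraries and 210, 188 and 90.3 FPKM in WT libraries (-1.41 ± 0.94, adjusted p = 0.245), and it was called without a filter on counts, with a replicate block and without CAT replicate 1. Igfbp4, which binds insulin-like growth factors, had 46, 45.1 and 147 FPKM in CAT libraries and 101, 76.9 and 84.2 FPKM in WT libraries (-0.07 ± 0.43, adjusted p = 0.907). In Ifng and Gdpd3 CAT replicate 3 was the lowest of all 6, and in Igfbp4 it was the highest. Amd1 and Amd2, near-identical copies, were also among the 26, as were Atp6v0c and its pseudogene Atp6v0c-ps2, and fragments may have been assigned to the copies in different shares in different libraries. Entries of short RNAs made up 7 of the 26, among them Mir677 and Snora75.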

How the data were processed

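The estimated counts of fragments and the FPKM values per gene and library are those the authors deposited, made with Cuffdiff per the file headers, with libraries scaled to each other for FPKM. Bowtie, HOMER, MACS2 and mm10 are listed in the submitters' processing notes, without saying which served the RNA libraries. From the authors' deposited table of q-values, 5984 of 13060 loci passed 0.05 (3177 higher and 2807 lower in CAT), and that table carries no gene names.

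Of 24340 rows, 27 with date-like names and 13 with a failed estimate of 0 were left out. Counts (92.5% whole, tolerance 1e-09) were rounded and tested in edgeR 4.0.16 (R 4.3.3) by the quasi-likelihood test, with TMM factors, filterByExpr and Benjamini-Hochberg adjustment. Limma 3.58.1 on log2(FPKM + 1) and DESeq2 1.42.0 were alternatives, and all 3 were checked on simulated data. A standard error is the absolute log2 change divided by the square root of F. Limma fold changes understate the change of low genes. Gene names, biotypes and promoters came from RefSeq GRCm38.p6, where 23131 genes matched by symbol and 1055 by synonym.

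Classes were matched by gene symbol. Named genes were up to 3 that rose and 3 that fell most in each class (called, at a mean of 5 FPKM or more in either genotype), the 20 most abundant, the 15 with the largest FPKM differences each way, the 15 with the widest spread in CAT, fixed markers and 6 fixed genes. Other genes of the on and off rule, of the 100 most abundant and of the wide spread were named after their values were seen. The members and lists were chosen with earlier results of these data known. No pair of libraries differed by less than sampling noise.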

Additional observations from a re-analysis of the deposited data

How the results depend on the processing

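The numbers of genes called higher and lower in CAT cells were 3341 and 3046 by DESeq2, 3127 and 3419 with upper quartile factors, 3040 and 3550 with library totals alone, and 3650 and 3290 without a filter on counts. They fell to 2099 and 1834 by limma on log2(FPKM + 1), 2093 and 1815 with a pseudocount of 0.1, and 2077 and 1805 without a filter on low values. Limma on quantile normalized log2(FPKM + 1) gave 1839 and 2203. WT replicate 2 as the only WT library gave 1954 and 1631, with fewer samples in the fit. Leaving out 1 library at a time gave 2688 to 3583 higher and 2417 to 3364 lower. No gene was called in the opposite direction in any of these settings. DESeq2 and limma shared 6221 and 3877 of the 6466 calls. Of 592 named genes that were called, 420 kept the call in every setting that gave a value. The change of Irf1 turned, at 0.31 in edgeR and -0.023 in quantile normalized limma, and the cause was not tested. With replicate number as a block 3349 were higher and 3035 lower. Same-numbered CAT and WT libraries had correlated deviations of 0.111, -0.0370 and 0.0935. CAT replicate 1 correlated best with its own number, and so did CAT replicate 3, narrowly (0.0930 with WT replicate 2). CAT replicate 2 did not. With 3 libraries per genotype this cannot decide whether the numbers pair the samples. Genes with a wide spread numbered 63 in CAT and 30 in WT at an SD of 0.75, 14 and 6 at an SD of 1.5, 66 and 31 at 1 FPKM or more, 11 and 11 at 20 FPKM or more, and 36 and 26 on log2(FPKM + 1). With 3 libraries per genotype, genes of few fragments are the least precise.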

Other observations

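Some tested genes called in the same direction lay side by side on the chromosomes. Runs of at least 6 neighbouring tested genes numbered 14 among genes that were higher in CAT cells and 18 among genes that were lower, and how many runs the share of called genes alone would give was not tested. The longest were histone gene clusters on chromosome 13, with 31 and 22 genes higher in a row. Also on chromosome 13, Ccno, Gpx8, Gzma, Gzmk, Esm1 and Snx18 were 6 neighbours that were all higher. On chromosome 7 a run of 7 higher genes held Ifitm1, Ifitm2 and Ifitm3, and a run of 8 held kallikrein genes. On chromosome 17 a run of 7 higher genes lay between H2-DMa and Tap2, in the MHC. Among runs of lower genes, 6 Slfn genes lay on chromosome 11 and 7 Ifit genes and neighbours on chromosome 19. Runs of lower genes that held several Zfp genes had 7 members on chromosome 7, 6 on chromosome 13 and 9 on chromosome 17. Near-identical or overlapping neighbours can share fragments, so the genes of a run are not independent measurements, and these runs were picked out after the values were seen. Of 437 tested genes on chromosome X, 86 were higher and 129 lower in CAT cells (19.7% and 29.5%, against 25.5% and 23.5% of all tested genes). This balance was not particular to chromosome X. Chromosome 3 had 20.4% higher and 28.0% lower, and chromosome 16 had 20.5% and 27.4%. Differences between chromosomes were not tested.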
